A study of Homo sapiens with 3 samples.

Results

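Goblet-like cells are named here after the mucus-secreting goblet cells of the intestine (secretion itself was not measured), and they were selected on 2 measured counts, as the cells with 5 or more transcripts of MUC2 plus FCGBP, the gel-forming mucin of the intestine and a protein that is secreted with it into mucus. Among 15560 cells kept from 3 libraries, 120 met this rule, 37 in control 1, 51 in control 2 and 32 in the lipopolysaccharide (LPS) library. The libraries hold Caco-2 (passage 8) and HT29 (passage 13) cells, both human colorectal carcinoma lines, seeded together on Transwell membranes in 9 parts to 1 and harvested on day 23. The 2 control libraries were untreated, and the LPS library received 1 ng/ml of Escherichia coli O111:B4 LPS on the apical side from day 22 for 24 h. Libraries of single cells were made with the 10x Genomics 3′ kit, in which a unique molecular identifier (UMI) marks each captured RNA molecule. Each library mixes both lines, which the labels do not separate cell by cell, and all cells are tumour-derived. There is 1 LPS library, the labels do not say that the 2 controls are separate cultures, and the study's text is not uniform on the number of Transwells. The p-values therefore measure only the spread between these libraries, which may be technical.

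Goblet cells are secretory cells of the intestinal epithelium that fill their apical side with granules of mucin. MUC2 is folded in the endoplasmic reticulum with the help of the disulfide isomerase AGR2, is decorated with O-linked glycans in the Golgi, and is released together with FCGBP, the trefoil peptide TFF3, the lectin-like protein ZG16 and the metalloprotease CLCA1. The fate is set by the transcription factor ATOH1 in progenitors with low Notch signalling, and SPDEF drives the later steps of maturation. HT29 cells are known to give rise to mucus-secreting cells, and Caco-2 cells to enterocyte-like absorptive cells.

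The promoters of the pair of genes that define the cells, and of the guanylin pair that stood out among the genes tested, are shown because ATOH1 belongs to the basic helix-loop-helix factors, which bind short E-box motifs. The sequences come from RefSeq (GRCh38.p14), cover the 250 bases before each start on the strand of the gene, and carry matches to CAGCTG (its own reverse complement) and to CAGATG or its reverse complement CATCTG in capitals. MUC2 (chr11:1074624-1074873, plus strand), FCGBP (chr19:39934635-39934884, minus strand), GUCA2A (chr1:42164746-42164995, minus strand) and GUCA2B (chr1:42153160-42153409, plus strand) read 5′ to 3′ as follows.
MUC2: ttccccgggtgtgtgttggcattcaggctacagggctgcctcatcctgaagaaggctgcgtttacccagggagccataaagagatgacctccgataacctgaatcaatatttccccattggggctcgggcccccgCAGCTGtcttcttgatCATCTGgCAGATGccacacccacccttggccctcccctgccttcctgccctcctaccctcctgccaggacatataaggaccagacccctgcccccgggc
FCGBP: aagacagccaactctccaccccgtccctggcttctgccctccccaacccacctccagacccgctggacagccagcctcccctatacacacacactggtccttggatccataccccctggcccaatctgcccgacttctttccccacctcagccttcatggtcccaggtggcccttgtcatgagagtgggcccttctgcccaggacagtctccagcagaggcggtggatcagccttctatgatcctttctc
GUCA2A: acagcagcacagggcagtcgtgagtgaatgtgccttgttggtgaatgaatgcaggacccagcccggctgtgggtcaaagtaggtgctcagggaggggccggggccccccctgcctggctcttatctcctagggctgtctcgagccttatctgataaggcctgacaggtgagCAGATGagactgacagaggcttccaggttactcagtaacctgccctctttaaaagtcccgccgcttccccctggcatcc
GUCA2B: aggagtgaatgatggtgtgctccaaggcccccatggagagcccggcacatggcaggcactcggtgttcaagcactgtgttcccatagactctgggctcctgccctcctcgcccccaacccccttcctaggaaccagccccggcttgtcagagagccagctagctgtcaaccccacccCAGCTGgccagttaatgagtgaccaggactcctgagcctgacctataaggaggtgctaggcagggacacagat
The MUC2 window holds 1 match to CAGCTG and 2 to CAGATG or CATCTG within a short stretch, the FCGBP window holds none, and the windows of GUCA2A and GUCA2B hold 1 match each. Across 35116 promoters of the same length, 14% hold CAGCTG and 12.2% hold CAGATG or CATCTG. Of the 15 genes with the largest increase in goblet-like cells, described further on, 10 had a promoter in the table, with CAGCTG in 3 and CAGATG or CATCTG in 3. Of the 15 with the largest decrease, 12 had a promoter, with CAGCTG in 1 and CAGATG or CATCTG in 3. A match is a string of letters and not a measured binding site.

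Depth differed between the libraries. Control 1 held 5811 barcodes with 33893707 UMIs, control 2 held 6495 with 27934953, and the LPS library held 6838 with 24185467. Barcodes with at least 1500 UMIs, at least 700 genes and at most 20% mitochondrial UMIs were kept, which left 5093, 5307 and 5160 cells with medians of 5496, 4196 and 3676 UMIs. Between any pair of libraries 9 to 11 barcodes were shared, none of them of a goblet-like cell and none with identical counts. The goblet-like cells had medians of 5895, 4523 and 4736 UMIs in control 1, control 2 and the LPS library. Their median mitochondrial share was 3.68%, 3.02% and 4.18% in the same order. The threshold of Scrublet marked 0, 0 and 1 cells as doublets, so it was not used. Among the 6% of cells with the highest doublet scores were 3, 5 and 3 goblet-like cells.

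A comparison class was made of 2546 cells with fewer than 5 UMIs of MUC2 plus FCGBP, at least 0.1% of UMIs on 8 genes of HT29 cells (LYZ, KRT20, LCN2, CD24, CD44, CST6, TCN1 and BMP4) and under 0.5% on the apolipoproteins APOA1 plus APOC3. It held 700, 1000 and 846 cells in control 1, control 2 and the LPS library and is called HT29 comparison cells below. The other 12894 cells, mostly of the Caco-2 side, are given as background. These 12 genes made the classes, so their values are descriptions with no test between the classes. The goblet-like class carries no condition on the line of origin, whereas the comparison class does. Of 120 goblet-like cells, 105 were under the apolipoprotein limit and 37 met both HT29 conditions. Another view came from the share of HT29-line genes among the UMIs of genes that the study lists for either line in monoculture, with the midpoint between the medians of the HT29 comparison and other cells as the border. By this score 87 goblet-like cells lay on the HT29 side (31, 35 and 21) and 33 on the Caco-2 side or at the border (6, 16 and 11). Of HT29 comparison cells 88.9%, 87.8% and 89.4% lay on the HT29 side, against 1.65%, 2.44% and 2.20% of the other cells.

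**Figure D1:**
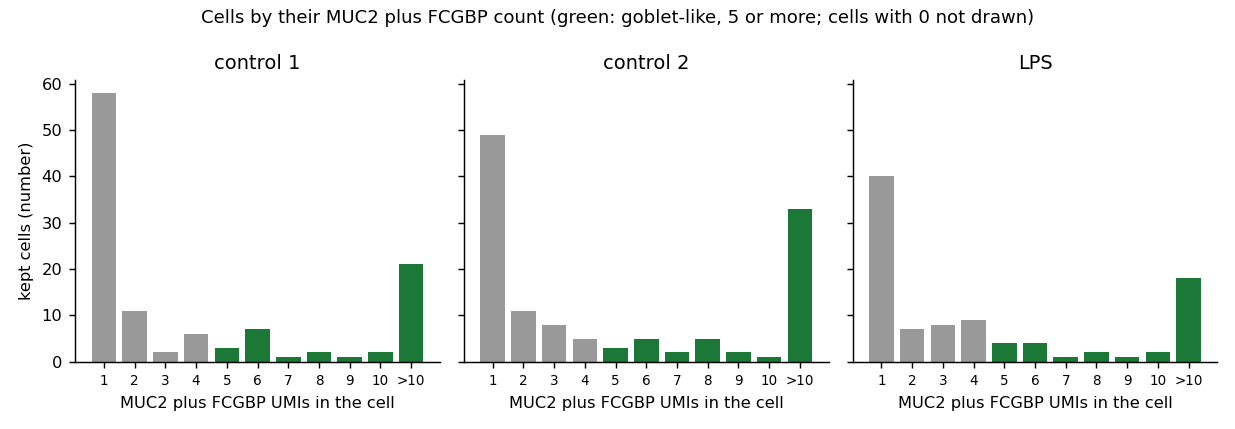
Number of kept cells (y axis) by their MUC2 plus FCGBP UMI count (x axis) in each library, with goblet-like cells in green and cells with 0 such UMIs not drawn. Cells with 1 UMI outnumber those with 2, 3 or 4 in every library, and 21, 33 and 18 cells hold more than 10.

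Most cells held no transcript of either gene. Over the 3 libraries 15226 cells had 0 UMIs of MUC2 plus FCGBP, 147 had 1, 29 had 2, 18 had 3 and 20 had 4. Just inside the threshold 10 cells had 5 and 16 had 6, and 72 cells had more than 10. The count thins out before the threshold and has a long upper tail, as the plot of cells by count shows. Within the goblet-like cells the median sum was 14, 16 and 13 UMIs and the highest 150, 81 and 94. FCGBP carried most of the selection, since 103 cells passed on FCGBP alone, 26 on MUC2 alone and 12 only on the sum. MUC2 and FCGBP were detected together in 74 cells, FCGBP without MUC2 in 45 and MUC2 without FCGBP in 1. These few cells held 90.0%, 74.8% and 84.6% of all MUC2 UMIs of the kept cells, and 89.5%, 92.4% and 86.2% of those of FCGBP.

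Levels are given as CPM (counts of a gene scaled to the same total of UMIs for every class and library, after its cells were added up), and always in the order control 1, control 2, LPS library. MUC2 (chromosome 11, 1074875 to 1110511, plus strand) stood at 508, 324 and 790 CPM in goblet-like cells and at 2.38, 3.17 and 1.67 CPM in HT29 comparison cells. FCGBP (chromosome 19, 39863323 to 39934626, minus strand) stood at 2621, 3442 and 3566 CPM against 4.29, 9.05 and 10.3 CPM. The rule fixed that these 2 genes differ.

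The other markers given for goblet-like cells were MUC5AC, SPDEF, TFF3 and HES6, which the rule did not use but which were chosen with earlier results of these data known. TFF3 (chromosome 21, 42311667 to 42315409, minus strand) had 14740, 9931 and 10710 CPM in goblet-like cells and 501, 659 and 545 CPM in HT29 comparison cells. Its lowest goblet-like library lay far above its highest comparison library, and the difference was 20.8-fold (log2 fold change 4.38 ± 0.16 SE, edgeR adjusted p = 1.41e-34, n = 3 libraries). HES6, a transcription factor of the Hes family, had 1199, 1127 and 1103 CPM against 94.6, 82.8 and 69.7 CPM. The groups did not overlap, and HES6 rose 14.1-fold (log2 3.81 ± 0.14, edgeR adjusted p = 3.95e-34). MUC5AC, a gel-forming mucin best known from the stomach, had 445, 543 and 714 CPM against 53.1, 69.2 and 91.6 CPM. It rose 8.08-fold without overlap (log2 3.01 ± 0.15, edgeR adjusted p = 3.21e-27). SPDEF had 169, 164 and 201 CPM against 52.2, 50.7 and 57.5 CPM, a rise of 3.36-fold without overlap (log2 1.75 ± 0.18, edgeR adjusted p = 5.38e-12). In the other cells MUC5AC stayed between 2.83 and 6.06 CPM and SPDEF between 2.27 and 3.97 CPM. HES6 stood there at 44.9, 50.9 and 53.6 CPM. TFF3 stood there at 1136, 860 and 747 CPM, above its level in HT29 comparison cells in each library.

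**Figure D2:**
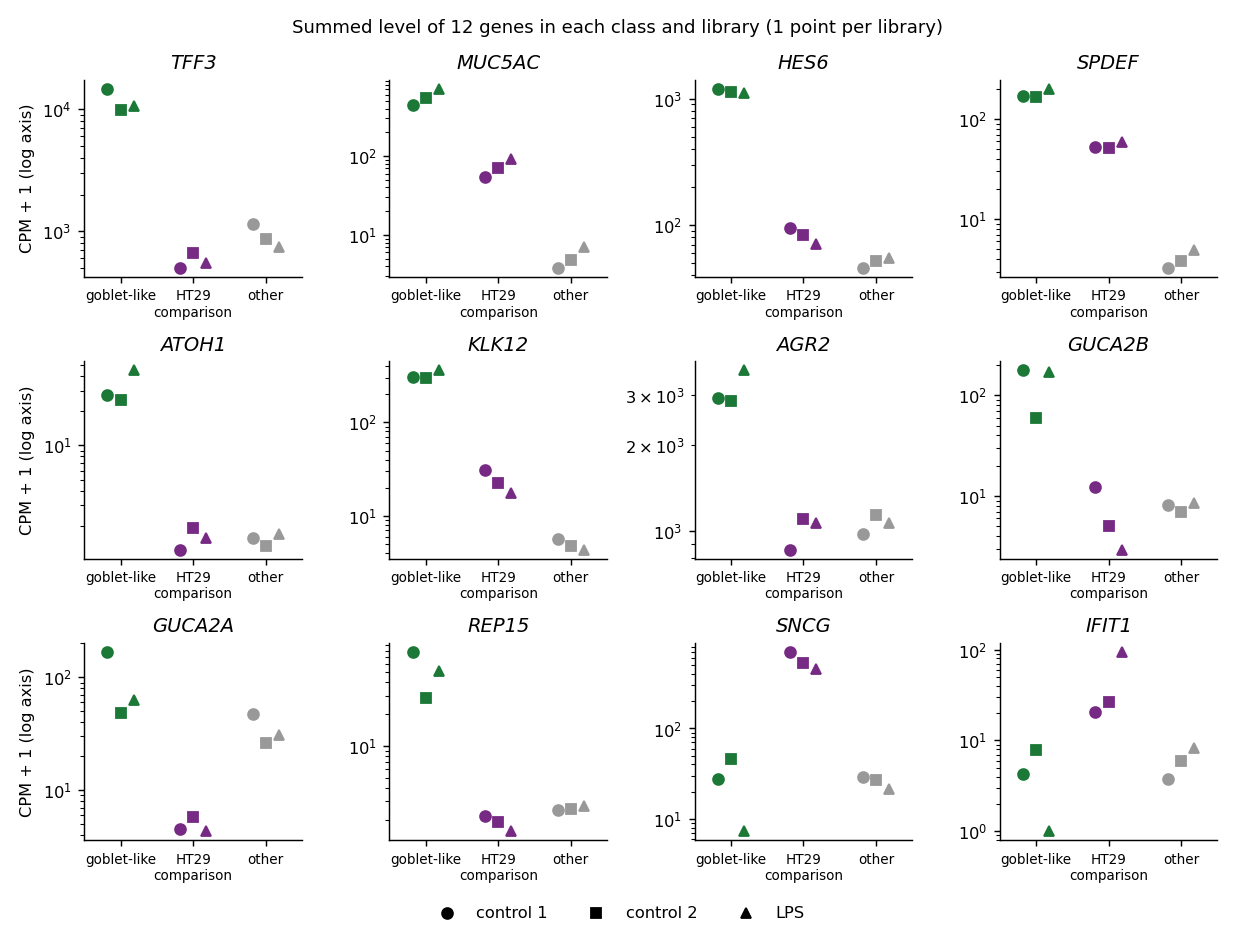
Level of 12 genes in CPM + 1 (log axis) in goblet-like, HT29 comparison and other cells, 1 point per library (circle control 1, square control 2, triangle LPS). The 10 genes that rose have all goblet-like points above all HT29 comparison points, and SNCG and IFIT1 have them below.

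Cell by cell, the same markers were common but not universal. TFF3 was detected in 100% of goblet-like cells, in 36.4% of HT29 comparison cells and in 68.8% of the other cells. After thinning each cell to 1500 UMIs these shares were 100%, 23.0% and 49.0%. HES6 was detected in 85.8%, 11.9% and 18.5% of the 3 classes before thinning and in 65.8%, 5.58% and 6.50% after it. SPDEF was detected in 65.0%, 20.4% and 1.28% (28.3%, 8.01% and 0.396% after thinning), and MUC5AC in 59.2%, 16% and 1.40% (31.7%, 7.23% and 0.403%). The median depth over the libraries was 4523 to 5895 UMIs in goblet-like and 3662 to 5542 in other cells, and the share in the other cells is the background beside which these shares stand. The order of goblet-like over HT29 comparison cells was kept after thinning for these 4 genes. Of the 4 markers, 49 goblet-like cells held all, 43 held 3, 19 held 2 and 9 held 1.

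Several enteroendocrine and tuft cell markers and a Paneth cell defensin were sparse in both classes, whereas the Paneth list members LYZ and PRSS2 were not. The enteroendocrine genes CHGA, CHGB, NEUROG3 and INSM1, the tuft cell factor POU2F3 and the Paneth cell defensin DEFA5 had 0 UMIs in 120 goblet-like cells, a count that leaves room for up to 2.5% of cells with a UMI of each. In HT29 comparison cells the shares were 0.157%, 0.432%, 0.628%, 2.32%, 0.785% and 0.0786% in the same order, all under that limit, so a difference was not detectable at this depth. Other markers had UMIs in a few goblet-like cells. The tuft cell channel TRPM5 had them in 6 cells (5.0% against 2.87% of HT29 comparison and 0.202% of other cells). The endocrine granule protein PCSK1N had them in 5 (4.17% against 3.3% and 13.1%), under the background of the other cells, and the Paneth list member ITLN2 in 3 (2.5% against 0.196% and 1.41%). The summed level of 21 enteroendocrine markers was 9.97, 20.5 and 31.3 CPM in goblet-like cells against 98.9, 124 and 69.4 CPM in HT29 comparison cells. Of them 3 could be tested and 1 fell, beside 5.33% of all genes tested. This was the hormone somatostatin (SST), whose 339 UMIs in HT29 comparison cells came from 13 cells (0.511%), while goblet-like cells held 1 UMI in 1 cell (0.833%), so the share of cells with a UMI did not go the way of the level. Of 10 tuft cell markers 1 was tested and did not pass. Of 8 Paneth cell markers 2 were tested and 1, PRSS2, passed as higher, beside 4.09% of all genes tested that rose. PRSS2 is a trypsinogen with near-identical copies among which reads may be split. Of the 2 tested, 0 passed without control 1, with DESeq2 and in cells with a low cell cycle share. Summed over the 8, the level was 2036, 420.0 and 696 CPM in goblet-like cells and 1538, 1339 and 1401 CPM in HT29 comparison cells, with 4 of the 8 at 0 in each library of either class. PRSS2 was the most abundant in goblet-like cells of control 1, and LYZ, a rule gene, in the other sums. LYZ was detected in 63.3% of goblet-like and 85.7% of HT29 comparison cells. CLCA1 had 0 UMIs in all 15560 cells. The gastric mucin MUC6 and the intelectin ITLN1 had 0 UMIs in goblet-like cells.

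The markers also changed with the MUC2 plus FCGBP count on either side of the threshold. Across all kept cells of control 1, TFF3 was at 1025 CPM in cells with 0 such UMIs, 1578 with 1, 5138 with 2 to 4, 6874 with 5 to 9, 19360 with 10 to 19 and 19990 with 20 or more. In control 2 the values were 775, 2651, 6237, 9282, 5481 and 13490 CPM, and in the LPS library 672, 1708, 6155, 7648, 10280 and 13500 CPM. Cells with 2 to 4 UMIs, just outside, lay in TFF3 between those with 1 and those with 5 to 9, just inside, in each library. HES6 with 2 to 4 UMIs (1398, 927 and 499.9 CPM) was above its level with 0 (42.6, 48.0 and 51.2 CPM) in each library. With 5 to 9 UMIs it was 611, 1631 and 1251 CPM, below the bin just outside in control 1 and above it in the other two libraries. Among cells that met the HT29 conditions alone, TFF3 at 0 UMIs was 436, 483 and 437 CPM and at 2 to 4 UMIs 5745, 5831 and 8525 CPM, in 8, 12 and 9 cells.

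**Figure D3:**
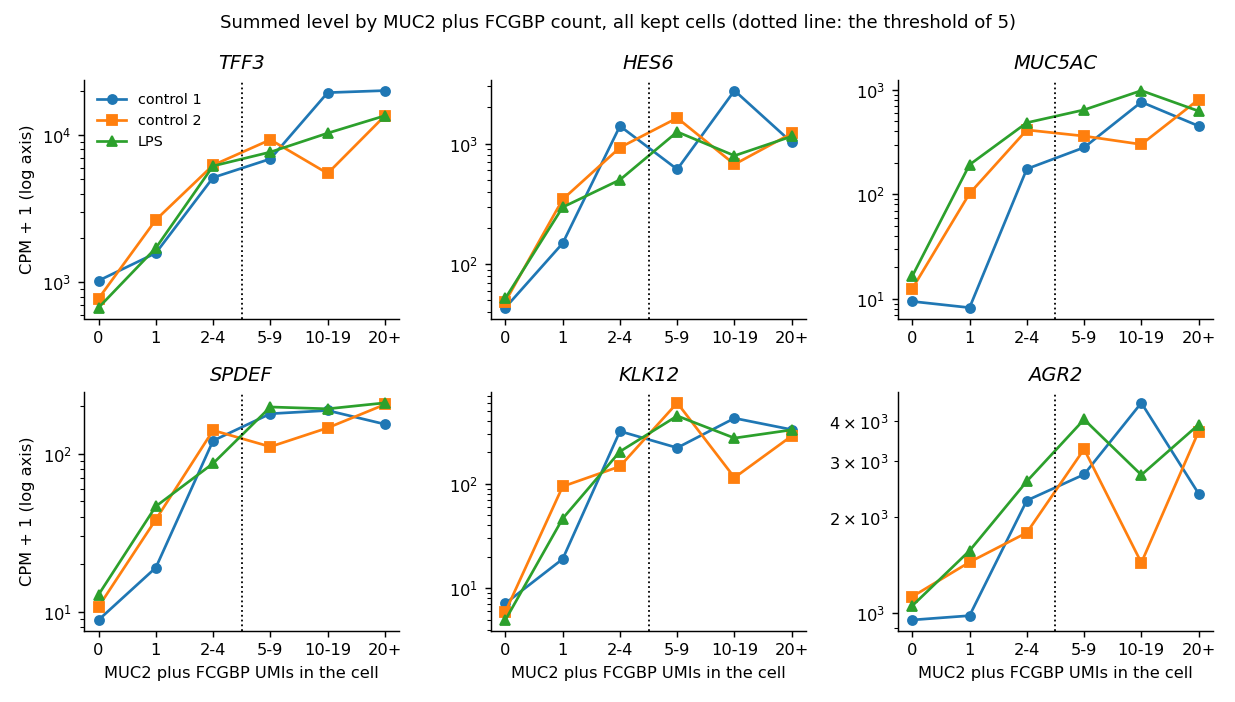
Level of 6 genes in CPM + 1 (log axis) by the MUC2 plus FCGBP UMI count of the cell, for all kept cells of each library, with the threshold of 5 as a dotted line. TFF3 at 2 to 4 UMIs is 5138, 6237 and 6155 CPM, above its level at 0 in each library.

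Gene expression was then compared between goblet-like and HT29 comparison cells within each library. Of 10322 genes tested, 972 (9.42%) passed an adjusted p of 0.05 in edgeR, 422 as higher (4.09%) and 550 as lower (5.33%) in goblet-like cells. The median log2 fold change of all genes was -0.02. Among the 972, 945 differed the same way in all 3 libraries and 897 had groups that did not overlap, against 2898 of all genes tested. The count was 656 without control 1, 574 without control 2 and 502 without the LPS library. With goblet-like cells restricted to the 37 that met both HT29 conditions it was 138.

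Most listed products that goblet cells secrete were higher. The list was chosen with earlier results of these data known. It holds TFF3, AGR2 and SERPINA1, which the study reported as rising toward its goblet-like cells. The counts therefore describe the list and are no independent support for the name of the cells. Of 20 listed, 14 could be tested (MUC2 and FCGBP excluded as rule genes), and 13 rose, 0 fell, with a median log2 fold change of 2.17, where 4.09% of all genes tested rose. Without control 1 the count was 10 of 13 tested, without control 2 it was 13 of 15 and without the LPS library 11 of 14. In the 37 cells that met the HT29 conditions it was 11 of 13. Together the 20 genes made up 3.31%, 2.47% and 2.68% of all UMIs in goblet-like cells and 0.502%, 0.497% and 0.476% in HT29 comparison cells.

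Guanylin and uroguanylin, the peptides GUCA2A and GUCA2B that switch on chloride and fluid secretion through guanylate cyclase C and lie side by side on chromosome 1, were among the largest increases. GUCA2A had 166, 47.8 and 62.7 CPM in goblet-like cells and 3.57, 4.75 and 3.33 CPM in HT29 comparison cells. Control 1 was the highest and no library overlapped (log2 4.54 ± 0.36, edgeR adjusted p = 5.34e-17), and without control 1 the log2 fold change was 3.66. GUCA2B had 176, 58.1 and 169 CPM against 11.2, 4.07 and 1.94 CPM, again without overlap (log2 4.49 ± 0.32, edgeR adjusted p = 3.93e-19). In the other cells GUCA2A was at 46.5, 25.3 and 30.1 CPM and GUCA2B at 7.15, 5.94 and 7.5 CPM. REP15, an effector of the small GTPase Rab15 in vesicle recycling, had 76.4, 27.3 and 50.1 CPM against 1.19, 0.905 and 0.555 CPM. This was the largest increase among the genes named by the rule, at 53.6-fold (log2 5.75 ± 0.48, edgeR adjusted p = 1.40e-15).

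The remaining secreted products differed in their levels outside the HT29 side of the culture. AGR2 had 2930, 2858 and 3672 CPM against 857, 1095 and 1066 CPM (log2 1.66 ± 0.13, edgeR adjusted p = 3.84e-17). TFF1 had 535, 748 and 633 CPM against 132, 81.7 and 99.1 CPM, a rise of 6.26-fold (log2 2.65 ± 0.16, edgeR adjusted p = 5.86e-23), and LGALS4, a galectin of gut epithelium, had 5949, 3804 and 3985 CPM against 1646, 1815 and 1560 CPM (log2 1.44 ± 0.14, edgeR adjusted p = 1.35e-13). In these genes the groups did not overlap. A UMI of TFF1 was found in 45.0% of goblet-like cells, 12.9% of HT29 comparison cells and 44.2% of the other cells. ZG16 had 43.2, 75.1 and 68.9 CPM against 5.24, 8.60 and 10.8 CPM, but stood at 118, 115 and 102 CPM in the other cells. Its increase (log2 2.97 ± 0.35, edgeR adjusted p = 2.92e-10) did not pass when both classes were limited to the HT29 side of the line score (log2 1.35, adjusted p = 0.305). The tissue kallikrein KLK1 and the protease inhibitor SERPINA1 also rose against HT29 comparison cells (log2 2.49 ± 0.16 and 1.66 ± 0.14), with levels in the other cells of 277, 273 and 249 CPM and of 1849, 1691 and 1692 CPM, close to the 279, 335 and 276 CPM and the 2006, 1639 and 1460 CPM of goblet-like cells.

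Several secreted products rested on few cells or on control 1. PRSS2 had 1568, 109 and 201 CPM against 184, 86.7 and 105 CPM, and 5 cells held 85.8% of its UMIs. Its increase (log2 1.86 ± 0.23, edgeR adjusted p = 2.41e-09) was 0.60 without control 1 (adjusted p = 0.113). REG4, a C-type lectin of the colon, had 110, 20.5 and 31.3 CPM against 25.0, 18.8 and 18.0 CPM. Its increase (log2 1.42 ± 0.32, edgeR adjusted p = 0.000961) was 0.40 without control 1 (adjusted p = 0.812) and missed the threshold without the LPS library (log2 1.58, adjusted p = 0.0585). TFF2 had 565, 243 and 113 CPM against 43.1, 25.8 and 32.2 CPM without overlap (log2 3.20 ± 0.20, edgeR adjusted p = 3.70e-22), with 66.4% of its UMIs in 5 cells, and stood at 322, 149 and 134 CPM in the other cells. Of 120 goblet-like cells 25 held a UMI of PRSS2 and 17 one of REG4. Of 9 listed membrane mucins 8 were tested, 0 rose and 2 fell, MUC13 and MUC15, beside 5.33% of all genes tested that fell. The count was 1 without the LPS library and 1 with DESeq2. MUC13 had 63.1, 88.8 and 87.7 CPM against 242, 318 and 275 CPM (log2 -1.80 ± 0.20, edgeR adjusted p = 3.64e-11). MUC15 had 1 UMI in goblet-like cells against 251, and missed the threshold without the LPS library (adjusted p = 0.0679).

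Transcription factors of the secretory fate rose in part. Of 20 listed 17 were tested, 6 rose and 1 fell, with a median log2 fold change of 0.41, beside 4.09% and 5.33% of all genes tested. ATOH1 (chromosome 4, 93828753 to 93830964, plus strand) had 26.6, 23.9 and 43.9 CPM in goblet-like cells and 0.238, 0.905 and 0.555 CPM in HT29 comparison cells. These were 22 UMIs in 18 cells against 7 UMIs in all comparison cells, without overlap (log2 5.61 ± 0.61, edgeR adjusted p = 4.19e-11, and 6.26 without control 2). A UMI of ATOH1 was found in 15% of goblet-like cells, 0.275% of HT29 comparison cells and 0.233% of the other cells. CREB3L1, an ER-bound factor of secretory cells, had 196, 277 and 332 CPM against 77.4, 104 and 110 CPM (log2 1.46 ± 0.16). FOXA2 rose by a log2 fold change of 1.03 ± 0.20, and FOXA3 by 1.36 ± 0.32, the latter short of the threshold without the LPS library (log2 1.25, adjusted p = 0.0647). ETS2 fell, with 26.6, 23.9 and 25.1 CPM against 96.0, 76.0 and 87.4 CPM (log2 -1.75 ± 0.29, edgeR adjusted p = 4.90e-06).

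Of 22 Notch pathway genes 14 were tested, 3 rose and 0 fell, with a median of 0.09, where 4.09% of all genes tested rose. The ligand DLL1 had 23.2, 17.1 and 31.3 CPM against 3.81, 6.56 and 1.11 CPM, without overlap (log2 2.48 ± 0.54, edgeR adjusted p = 0.000585). It missed the threshold without the LPS library (log2 2.02, adjusted p = 0.0883) and was 3.24 without control 2. LFNG, the fringe glycosyltransferase that modifies Notch receptors, had 46.5, 37.6 and 94.0 CPM against 11, 9.5 and 12.8 CPM (log2 2.33 ± 0.35, edgeR adjusted p = 3.39e-07). Only 1 of the 3, LFNG, passed without the LPS library, 1 of 15 tested there beside 239 of all 10601 genes. The third was the receptor NOTCH3 (log2 1.79 ± 0.55, edgeR adjusted p = 0.0222), which missed the threshold without control 1 (adjusted p = 0.132), without control 2 (0.19) and without the LPS library (0.0979).

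NEURL1, a ubiquitin ligase that acts on Notch ligands and was named by the rule on size and not by the Notch list, had 93.0, 61.5 and 138 CPM against 12.2, 10.6 and 4.44 CPM (log2 3.32 ± 0.32, edgeR adjusted p = 5.45e-13). Also named by that rule were KLK12, a secreted kallikrein-related peptidase, with 306, 297 and 357 CPM against 29.8, 21.3 and 16.7 CPM, and FFAR2, a receptor for short-chain fatty acids, with 29.9, 20.5 and 50.1 CPM against 2.62, 2.49 and 3.05 CPM. The groups did not overlap for either gene. KLK12 rose 14.1-fold (log2 3.82 ± 0.18) and FFAR2 11.6-fold (log2 3.53 ± 0.49, 23 UMIs). RASD2, a small GTPase, had 39.9, 61.5 and 62.7 CPM against 2.14, 3.62 and 1.39 CPM (log2 4.43 ± 0.42). Beside 4.09% and 5.33% of all genes tested, 5 of 12 kallikreins were tested, and KLK12 and KLK1 rose while KLK6 (log2 -2.21 ± 0.28), KLK10 (log2 -2.62 ± 0.35, -3.36 without control 2) and KLK11 (log2 -0.63 ± 0.17) fell. KLK11 missed the threshold without control 1 (adjusted p = 0.0876) and without the LPS library (adjusted p = 0.104).

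**Figure D4:**
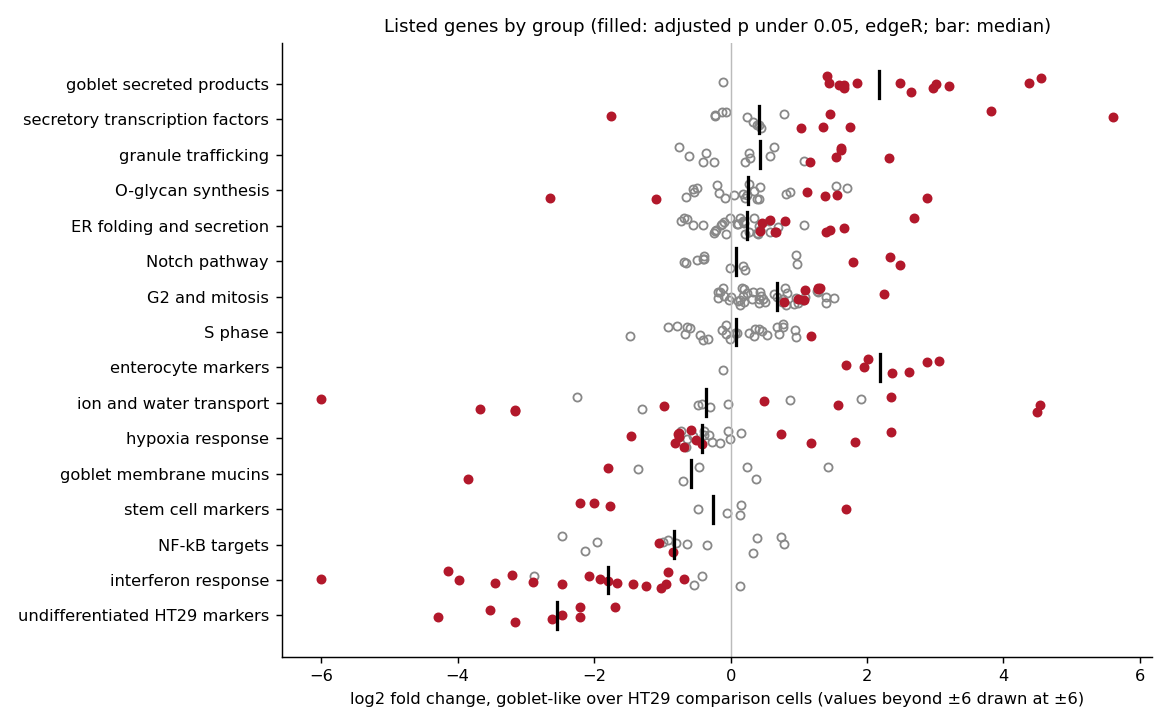
Log2 fold change of goblet-like over HT29 comparison cells (x axis) for the tested genes of 16 lists (rows), filled where the edgeR adjusted p is under 0.05, with the list median as a bar and values beyond 6 drawn at 6. Goblet secreted products (median 2.17) and enterocyte markers (2.19) lie to the right, and interferon response genes (-1.80) and undifferentiated HT29 markers (-2.55) to the left.

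Of 36 O-glycan synthesis genes 26 were tested, 4 rose and 2 fell, beside 4.09% of all genes tested that rose and 5.33% that fell. Without the LPS library 1 rose and 2 fell, where 239 of all 10601 genes tested rose and 263 fell. GMDS, which makes GDP-fucose, had 150, 71.7 and 144 CPM against 46.0, 35.8 and 39.4 CPM (log2 1.56 ± 0.22, edgeR adjusted p = 5.81e-08) and was the 1 that rose in either case. ST6GALNAC1, which adds the sialic acid of the sialyl-Tn antigen, rose (log2 2.88 ± 0.67, 11 UMIs), as did GNE, the first enzyme of sialic acid synthesis (log2 1.11 ± 0.25), and GALNT5, which starts O-glycans (log2 1.38 ± 0.44). All 3 missed the threshold without the LPS library (adjusted p = 0.128, 0.0528 and 0.137), ST6GALNAC1 was 3.80 without control 1, and GALNT5 also missed it without control 1 (0.522) and without control 2 (0.0506). GCNT3, the enzyme that makes core 2 and core 4 branches of mucin glycans, had 56.5, 17.1 and 37.6 CPM against 290, 191 and 220 CPM and fell (log2 -2.65 ± 0.24, edgeR adjusted p = 3.34e-14). ST3GAL1, which caps core 1 with sialic acid, fell by 1.09 on the log2 scale.

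Of 40 genes of ER folding and secretion, all tested, 10 rose and 0 fell, with a median of 0.25, where 4.09% of all genes tested rose. Without the LPS library 6 rose. AGR2 and CREB3L1 belong to this list too. SELENOM, a selenoprotein of the ER, had 89.7, 71.7 and 81.5 CPM against 13.8, 13.3 and 10.3 CPM (log2 2.69 ± 0.30, edgeR adjusted p = 5.21e-11). The disulfide isomerase PDIA5 rose by 1.39 ± 0.27, the translocon subunit SEC61B by 0.66 ± 0.14 and AGR3, a relative of AGR2, by 0.80 ± 0.18, the last short of the threshold without control 1 (log2 0.59, adjusted p = 0.109). The count was 13 of 40 on the HT29 side of the line score (223 of all 9787 genes rose there), 6 with DESeq2 (214 of 10121), 3 in the 37 cells that met the HT29 conditions (40 of 9845) and 3 with MUC2 alone as the rule gene (51 of 9769).

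Of 19 granule trafficking genes 16 were tested, 5 rose and 0 fell, with a median of 0.43, where 4.09% of all genes tested rose. RAB27A, a GTPase that tethers secretory granules for release, had 59.8, 47.8 and 113 CPM against 12.9, 13.1 and 15.8 CPM (log2 2.32 ± 0.31, edgeR adjusted p = 2.47e-08). The calcium sensor SYT7 rose by 1.17 ± 0.23 and RAP1GAP, which switches off the GTPase Rap1, by 1.62 ± 0.24. RAB3B (log2 1.54 ± 0.34) missed the threshold without the LPS library (adjusted p = 0.0821) and RAB26 (log2 1.62 ± 0.36) without control 1 (adjusted p = 0.078).

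Among 25 genes of ion and water transport 18 were tested, 5 rose and 5 fell, beside 4.09% and 5.33% of all genes tested. The 5 that rose were GUCA2A, GUCA2B, the aquaglyceroporin AQP3, the sulfate transporter SLC26A2 and the sodium-potassium-chloride cotransporter SLC12A2. AQP3 had 136, 219 and 138 CPM against 40.0, 35.1 and 21.4 CPM, without overlap (log2 2.36 ± 0.21, edgeR adjusted p = 6.22e-15). SLC12A2 (log2 0.49 ± 0.14) missed the threshold without control 1 (adjusted p = 0.296) and without the LPS library (0.123), and SLC26A2 (log2 1.58 ± 0.23) missed it on the HT29 side of the line score (adjusted p = 0.371). The water channel AQP1 had 19.9, 3.42 and 0 CPM against 83.2, 89.8 and 77.4 CPM and fell (log2 -3.15 ± 0.40, and -5.24 without control 1). AQP5 and the potassium channel KCNQ1 had 1 UMI each against 209 and 150, and carbonic anhydrase CA2 had 0 against 108, at least 2.22-fold lower when 3 UMIs over the goblet-like class are taken as the floor. AQP5 missed the threshold without control 1 (adjusted p = 0.0858) and without the LPS library (0.0602). ATP1B1, a subunit of the sodium pump, fell by 0.97 on the log2 scale. The falls dropped to 2 without control 1, 3 without control 2 and 2 without the LPS library, where 382 of 10535, 336 of 10518 and 263 of 10601 of all genes fell, and to 2 with DESeq2 and 2 with no pairing by library.

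Hypoxia-response genes moved both ways. All 25 were tested, 4 rose and 9 fell, with a median of -0.43, beside 4.09% and 5.33% of all genes tested. Without control 2, 5 fell, and with DESeq2 6 fell. NDRG1 had 482, 861 and 764 CPM against 855, 1638 and 1120 CPM, lower in each library although the ranges overlapped (log2 -0.76 ± 0.13, edgeR adjusted p = 1.68e-05). The growth factor VEGFA (log2 -0.81 ± 0.14), the glucose transporter SLC2A1 (log2 -0.77 ± 0.14) and lactate dehydrogenase LDHA (log2 -0.51 ± 0.13) fell too, LDHA short of the threshold without control 1 (adjusted p = 0.146) and without control 2 (0.171). BNIP3, a mitophagy receptor, rose (log2 1.83 ± 0.26) but missed the threshold on the HT29 side of the line score (adjusted p = 0.462), and its level was 270, 201 and 215 CPM in the other cells against 73.1, 102 and 100 CPM in goblet-like cells. The deacetylase SIRT2 rose by 1.18 ± 0.20. AQP3, described above, and ANKRD37 (log2 0.74 ± 0.18) also rose, and ANKRD37 missed the threshold without control 2 (adjusted p = 0.484).

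Genes of undifferentiated HT29 cells were lower. Of 16 listed 8 could be tested, since the other 8 made the comparison class, and all 8 fell, with a median log2 fold change of -2.55, where 5.33% of all genes tested fell. The count was 8 without control 1, 7 without control 2, 7 without the LPS library, 6 with DESeq2, 4 in cells with a low cell cycle share, 3 with MUC2 alone as the rule gene and 3 in cells thinned to 1500 UMIs. On the HT29 side of the line score 7 of 8 fell and in the 37 cells that met the HT29 conditions 4 of 8. The comparison class was picked for genes of this kind, so the 2 cannot be told apart in these values. SNCG, gamma-synuclein, had 26.6, 44.4 and 6.27 CPM in goblet-like cells and 698, 527 and 455 CPM in HT29 comparison cells, without overlap. It was 19.5-fold lower (log2 -4.29 ± 0.24, edgeR adjusted p = 1.03e-23), and its log2 fold change was -4.98 without control 2. LYZ, a rule gene, was at 462, 290 and 457 CPM in goblet-like cells and 1335, 1240 and 1263 CPM in HT29 comparison cells.

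The 15 genes with the largest decreases were named by the rule on size. SPRR1B, a protein of the cornified envelope, had 29.9, 6.83 and 6.27 CPM against 227, 121 and 183 CPM (log2 -3.46 ± 0.31, and -4.44 without control 1). PI3, the secreted elastase inhibitor elafin, had 43.2, 13.7 and 50.1 CPM against 589, 257 and 379 CPM (log2 -3.60 ± 0.24). COL17A1, the hemidesmosome collagen, had 9.97, 3.42 and 25.1 CPM against 124, 132 and 128 CPM (log2 -3.55 ± 0.35, and -4.18 without the LPS library). No library of these 3 genes overlapped. The others had few UMIs in goblet-like cells. LY6G6C had 1 UMI against 567, AHNAK2 had 2 against 594, TRIM29 had 3 against 746, SPRR3 had 2 against 485, the connexin GJB2 had 2 against 422, PRR5L had 2 against 398, the neuropeptide S receptor NPSR1 had 2 against 386, and NAALADL2 had 1 against 254 (adjusted p = 0.0586 without the LPS library). With 753458 goblet-like and 12219122 comparison UMIs in all, equal levels would differ in count as these totals do. LCN15, a lipocalin (log2 -3.63 ± 0.31), SFTA2 (log2 -3.56 ± 0.31) and the antisense RNA IGFL2-AS1 (log2 -3.80 ± 0.22) complete the 15. How the counting treated strand is not given in the sources used here, so IGFL2-AS1 may hold reads of its sense partner.

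Of 13 stem cell markers 8 were tested, 1 rose and 3 fell, beside 4.09% and 5.33% of all genes tested. AXIN2 and RNF43, targets of and brakes on Wnt signalling, had 13.3, 6.83 and 12.5 CPM against 48.6, 48.9 and 56.1 CPM and 59.8, 20.5 and 75.2 CPM against 207, 161 and 231 CPM. Neither overlapped (log2 -2.21 ± 0.41 and -2.0 ± 0.23, edgeR adjusted p = 5.20e-05 and 2.39e-10). ZNRF3, with the same role as RNF43, fell (log2 -1.77 ± 0.52), and was -2.55 without control 1 and missed the threshold without control 2 (adjusted p = 0.21) and without the LPS library (0.147). LRIG1 rose (log2 1.70 ± 0.47) but missed it without control 2 (adjusted p = 0.0748) and without the LPS library (log2 1.17, 0.364).

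Interferon-response genes were lower in goblet-like cells. Of 22 listed 21 were tested, 0 rose and 17 fell, with a median log2 fold change of -1.80, where 5.33% of all genes tested fell. The count was 14 without control 1, 14 without control 2, and 5 without the LPS library, where the median was -1.56. With DESeq2 8 of 21 fell (232 of all 10121 genes), and with no pairing by library 8 (410 of 10322). Restricted to the HT29 side of the line score 12 of 21 fell and in the 37 cells that met the HT29 conditions 5. The 22 genes summed to 1362, 1608 and 1491 CPM in goblet-like cells, to 2924, 3111 and 4403 CPM in HT29 comparison cells and to 614, 645 and 625 CPM in the other cells. Goblet-like cells thus lay between the other classes in every library, and the HT29 comparison cells of the LPS library had the highest sum. IFI27 had 492, 608 and 526 CPM against 966, 1073 and 1369 CPM (log2 -1.02 ± 0.14, edgeR adjusted p = 4.86e-08). ISG15, a ubiquitin-like modifier, had 232, 202 and 251 CPM against 543, 510 and 919 CPM (log2 -1.44 ± 0.16, edgeR adjusted p = 5.21e-11), and IFI6 had 113, 171 and 163 CPM against 369, 496 and 586 CPM (log2 -1.66 ± 0.17, edgeR adjusted p = 2.80e-12). In these 3 genes the groups did not overlap. IFIT1, which binds viral RNA, had 3 UMIs in goblet-like cells against 527 and missed the threshold without the LPS library (adjusted p = 0.106). IFI44L had 0 UMIs against 257, at least 5.28-fold lower. IFITM3 (log2 -2.89 ± 0.47, and -3.58 without control 2) has close relatives between which reads may be split.

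**Figure D5:**
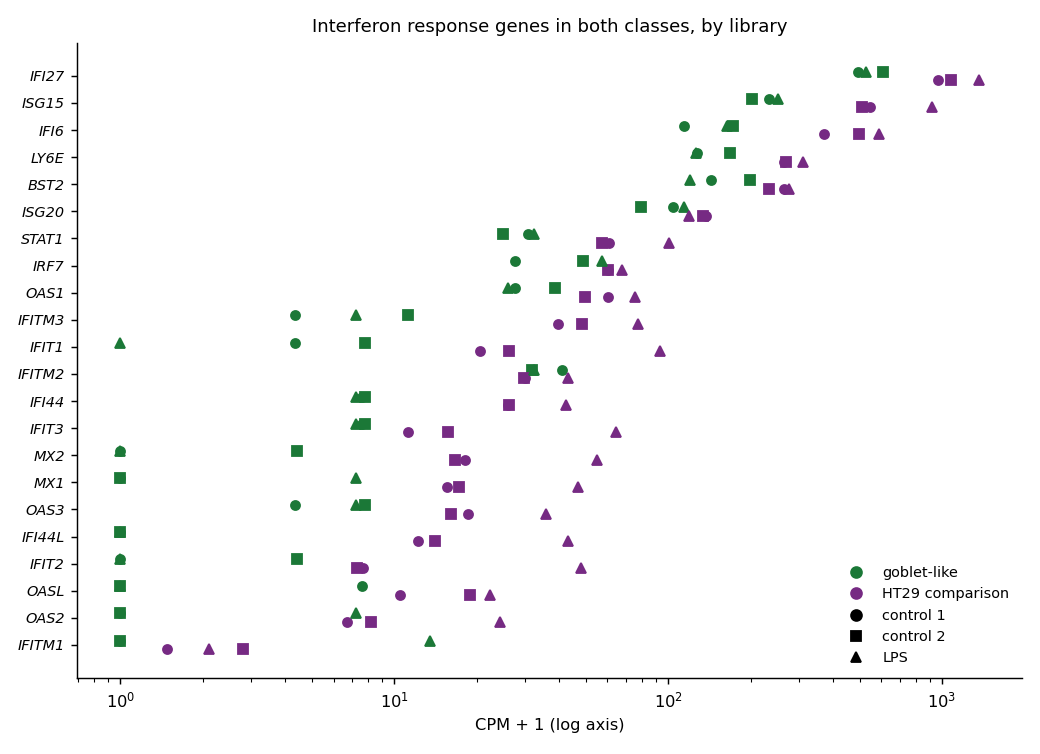
Level of 22 interferon-response genes in CPM + 1 (log axis), with goblet-like cells in green and HT29 comparison cells in purple, 1 point per library (circle control 1, square control 2, triangle LPS; points at the same value hide each other). IFI27, ISG15 and IFI6 have all goblet-like points to the left of all HT29 comparison points, and the LPS triangles of HT29 comparison cells lie to the right of their controls for these 3 genes.

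Of 20 NF-kB targets 14 were tested, 0 rose and 2 fell, IER3 and NFKBIZ, beside 5.33% of all genes tested that fell, with 1 without control 2 and 1 without the LPS library. IER3, an early response gene, had 136, 202 and 94.0 CPM against 355, 326 and 232 CPM (log2 -1.04 ± 0.18, edgeR adjusted p = 6.19e-06). The receptor for LPS was barely measured. TLR4 had 0 UMIs in goblet-like cells and 6 in HT29 comparison cells. Of 16 listed genes of LPS and other Toll-like receptor sensing 3 were tested and 1 fell, the co-receptor CD14, with 2 UMIs against 175 (edgeR adjusted p = 0.0439). It missed the threshold without control 1 (0.328), control 2 (0.11) and the LPS library (0.176).

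Enterocyte markers were higher in goblet-like than in HT29 comparison cells. Of 16 listed 8 were tested, 7 rose and 0 fell, with a median log2 fold change of 2.19, where 4.09% of all genes tested rose. The count was 7 of 8 without control 1, 6 of 7 without control 2 and 5 of 6 without the LPS library, but 1 of 7 on the HT29 side of the line score (APOA4) and 0 of 6 in cells that met the HT29 conditions. Summed over the 16 genes the level was 3026, 6471 and 5439 CPM in goblet-like cells, 1078, 1108 and 1206 CPM in HT29 comparison cells and 15700, 12610 and 11990 CPM in the other cells, with APOA1 or APOC3 the most abundant in goblet-like cells. The comparison class had to be low in APOA1 and APOC3 and the goblet-like class did not. In the 105 goblet-like cells under the same limit of 0.5%, 1 of 6 tested rose, with a median log2 fold change of 0.23. The line score is itself built from genes of either line, and the part of line of origin and of the class conditions in these values was not tested. APOA4, an apolipoprotein of chylomicrons, had 209, 1035 and 696 CPM against 73.2, 65.8 and 71.0 CPM (log2 3.06 ± 0.20, edgeR adjusted p = 8.80e-21, and 3.65 without control 1 and 2.43 without control 2). FABP1, a fatty acid binding protein, had 950, 1557 and 1053 CPM against 304, 308 and 303 CPM (log2 1.96 ± 0.14), and APOB rose by 1.69 ± 0.23. On the HT29 side of the line score FABP1 was at 0.22 (adjusted p = 0.693) and APOB at 0.99 (adjusted p = 0.151). The study defined its enterocyte-like cells by APOA4, which rose here, together with the brush-border peptidase ANPEP and FABP2. ANPEP and FABP2 had 8 and 1 UMIs in goblet-like cells, given without a comparison to the other classes.

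Cell cycle genes were compared as well. Of 44 S phase genes 28 were tested and 1 rose, RAD51AP1, near the 4.09% of all genes that rose. Of 52 genes of G2 and mitosis 49 were tested and 8 rose, with 4 without control 1, 8 without control 2, 4 without the LPS library and 0 on the HT29 side of the line score. CDK1, the kinase that drives mitosis, had 76.4, 54.6 and 106 CPM against 27.2, 31.9 and 35.2 CPM (log2 1.31 ± 0.26), and was at -1.05 (adjusted p = 0.427) on the HT29 side of the line score. TOP2A (log2 0.79 ± 0.18) missed the threshold without the LPS library (adjusted p = 0.104). Cells with at least 1% of UMIs on cycle genes made up 3 of 37, 1 of 51 and 3 of 32 goblet-like cells, and 2.57%, 2.60% and 2.60% of HT29 comparison cells. Goblet-like cells were lower in control 2 (1.96%) and higher in the other two libraries (8.11% and 9.38%), with wide exact binomial intervals (1.70 to 21.9%, 0.0496 to 10.4% and 1.98 to 25.0%) that overlapped those of HT29 comparison cells. Of the other cells 10.4% in all reached this share.

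Goblet-like cells also varied among themselves. The 87 cells on the HT29 side of the line score had TFF3 at 17410, 12750 and 13450 CPM, and the 33 others at 6717, 6615 and 7493 CPM. MUC5AC was at 554, 847 and 1253 CPM against 120, 186 and 81.7 CPM, and KLK12 at 399, 423 and 545 CPM against 26.6, 149 and 136 CPM. The order was the same in each library for these 3 genes. It was turned for TFF1, at 359, 727 and 406 CPM on the HT29 side and 1062, 773 and 899 CPM in the others, and for ZG16, at 8.86, 25.3 and 23.2 CPM against 146, 134 and 123 CPM. APOA1 was at 341, 720 and 673 CPM against 3066, 2906 and 3052 CPM. The line score that made this split is built from genes of either line. Genes that differ between the lines are therefore likely to differ here by construction. Median depth was 5249, 3892 and 4155 UMIs on the HT29 side and 13510, 7901 and 5790 UMIs in the others, and the part of depth and of doublets in these gaps was not tested. Cells with MUC2 and FCGBP, compared with those with FCGBP alone, had TFF3 at 14850, 11600 and 11790 CPM against 14160, 7256 and 9321 CPM.

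Across the 120 cells, pooled over libraries and scaled to CPM, the highest Spearman correlation among 120 pairs of 16 genes was that of TFF1 with TFF2 (0.51), followed by MUC5AC with AGR2 (0.46) and HES6 with CREB3L1 (0.46). HES6 with KLK12 stood at 0.44 and KLK12 with TFF1 at -0.38. MUC2 with TFF3 stood at 0.37, MUC2 with SOX4 at -0.37 and MUC2 with FCGBP, whose sum made the rule, at 0.00. The cells share libraries and differ in depth, and these counts are sparse, so the values are descriptions.

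The share of goblet-like cells was 0.726% of kept cells in control 1 (exact binomial 95% interval 0.512 to 1.00%), 0.961% in control 2 (0.716 to 1.26%) and 0.620% in the LPS library (0.425 to 0.874%). The controls averaged 0.844% ± 0.166 (SD, n = 2), and the intervals of all 3 libraries overlapped. Of goblet-like plus HT29 comparison cells they made up 5.02% (3.56 to 6.85%), 4.85% (3.63 to 6.33%) and 3.65% (2.51 to 5.11%), with a control mean of 4.94% ± 0.118. The LPS library was the lowest on either base, and its interval overlapped those of both controls. This order was not kept in all settings. Control 1 had the lowest share of kept cells with a threshold of 3 UMIs (0.884% against 0.950% in the LPS library). It was also lowest with a share of 0.1% of UMIs in place of 5 UMIs (0.609% against 0.620%) and with the rule applied to thinned cells (0.255% against 0.310%). Control 2 was lowest with MUC2 alone (0.113% against 0.174%). Of goblet-like plus HT29 comparison cells, control 2 had the lowest share with MUC2 alone (0.591% against 1.04% in the LPS library). In thinned cells control 1 and the LPS library were nearly equal on this base (1.892% and 1.893%). The intervals cover counting error only, and with 1 LPS library no test between conditions was made.

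LPS treatment was compared with control within goblet-like cells, on the assumption that the lone LPS library varies as the controls do. Of 12014 genes tested 0 (0%) passed an adjusted p of 0.05 in edgeR, 587 had an unadjusted p under 0.05, and DESeq2 gave 0 and 259. With the replicate number as a block, which sets the LPS library against control 1 and leaves 1 residual degree of freedom, 47 genes passed in edgeR, 5 as higher and 42 as lower, so the count of 0 depended on this choice. In HT29 comparison cells edgeR passed 0 genes with 239 at an unadjusted p under 0.05, and the difference between the LPS effects of the 2 classes passed 0 with 394. TFF3 changed by a log2 fold change of -0.42 ± 0.27 (edgeR adjusted p = 0.808), HES6 by -0.29 ± 0.21 (0.814) and MUC5AC by 0.32 ± 0.26 (0.831). The LPS library held 32 goblet-like cells with 159583 UMIs in all.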

How the data were processed

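The count matrices deposited by the authors hold UMIs per gene and barcode, made with Cell Ranger 3.1.0 per the file headers from reads on GRCh38, with no normalization and before the cell filters used here. The lowest barcode totals were 500, 500 and 501 UMIs. They list 33538 genes, 0 columns went unused, and they hold no comparison of the authors' own. Aligner settings are not given in the sources used here. Cells were filtered and classed as described above, and counts were summed per class and library. edgeR 4.0.16 in R 4.3.3 fitted library and class to these sums (TMM scaling, filterByExpr, quasi-likelihood test, Benjamini-Hochberg over all genes tested but the 12 rule genes, threshold 0.05, 2 residual degrees of freedom). Each library holds both classes, which is the source of the pairing. The SE printed is the absolute log2 fold change divided by the square root of the F statistic of the test. That test shares dispersion among genes, so a small p does not rest on the 3 libraries of 1 gene alone. LPS against control was fitted over 4 groups of class by treatment, and in that fit the 12 rule genes were not taken out before the adjustment. Scrublet was run in scanpy 1.11.5, and shares have exact Clopper-Pearson intervals. The scripts were tested on simulated data. There the comparison of LPS with control recovered 0 of 58 genes changed by 1 on the log2 scale and 15.0% of all changed genes. The comparison of the classes recovered 60.9% of all changed genes, 28.8% of those changed by 1 on the log2 scale and 85.9% of those changed by 3. The simulation gave every gene the same dispersion and no library effect, and changed only genes with enough counts. These shares therefore need not hold for the real data. Named genes are those of the lists, and the 15 with the largest rise and the 15 with the largest fall among genes that passed, changed the same way in all 3 libraries and reached 20 CPM in the higher class in each. The members and lists were chosen with earlier results of these data known. Alternatives covered scaling, filters, DESeq2 1.42.0, thresholds, doublets, depth, line of origin and each library left out. Gene positions are those of GENCODE on GRCh38.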

Additional observations from a re-analysis of the deposited data

How the results depend on the processing

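The 972 genes that differed between goblet-like and HT29 comparison cells were 446 with DESeq2, 1482 with a threshold of 3 UMIs of MUC2 plus FCGBP, 622 with a threshold of 10, 196 with MUC2 alone, 279 in cells with a low cell cycle share, 333 in cells thinned to 1500 UMIs, 577 with both groups above the line midpoint and 138 with goblet-like cells that pass the HT29 conditions. They were 502 to 656 with 1 library left out. With no filter on low counts the number was 972 again, split into 285 higher and 687 lower against 422 and 550, and 29.3% of calls were higher against 43.4%, with a median log2 fold change of all genes of -0.37. Of the 972, 128 remained under the HT29 conditions and 511 above the line midpoint. Without the replicate block, that is, with no pairing of the classes by library, 723 genes passed, of which 722 were among the 972. Without it 8 of the 93 genes given with a test missed the threshold (ANKRD37, AQP5, CD14, IFIT1, KLK11, LDHA, NOTCH3 and SLC12A2). The difference between the LPS effects of the 2 classes passed 0 genes with the library as replicate block too, a fit with 1 residual degree of freedom added after the data had been seen (568 genes at an unadjusted p under 0.05), and 0 with DESeq2 (93). For LPS against control within goblet-like cells the replicate block, also added after the data had been seen, gave 47 genes against 0, with 1 residual degree of freedom. Only replicate number 1 occurs on either side, so this fit sets the LPS library against control 1, and the labels do not say that the number marks a shared culture or day. Leaving out a control there left no residual degrees of freedom and could not be fitted. LPS against control in goblet-like cells gave 3 genes with goblet-like cells that pass the HT29 conditions (FTH1, PRSS2 and TFF2, all lower), 2 without the 6% highest doublet scores (FTH1 lower, SLC2A3 higher) and 4 in cells thinned to 1500 UMIs (FTH1, PRSS2 and TFF2 lower, AFP higher), named here after their values were seen, and 0 in the other settings fitted.

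The control mean of the goblet-like share of kept cells (0.844%) was 1.05% at a threshold of 3 UMIs, 0.546% at 10, 0.280% under the HT29 conditions, 0.634% above the line midpoint, 0.165% with MUC2 alone and 0.363% with the rule applied to thinned cells. The LPS share (0.620%) was 0.950%, 0.388%, 0.155%, 0.407%, 0.174% and 0.310% in the same order. The control mean of the share of goblet-like plus HT29 comparison cells (4.94%) was 6.06% at a threshold of 3, 3.23% at 10, 4.68% with a share of 0.1% in place of 5 UMIs, 1.8% under the HT29 conditions, 4.47% with goblet-like cells under the apolipoprotein limit, 4.29% above the line midpoint, 4.73% without high doublet scores, 5.28% with higher minimums of UMIs and genes per cell, 1.06% with MUC2 alone, 4.22% with FCGBP alone and 2.22% in thinned cells. The LPS share (3.65%) was 5.51%, 2.31%, 0.937% (HT29 conditions), 1.04% (MUC2 alone) and 1.89% (thinned).

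Of 93 genes given with a test, 86 kept their direction in every setting that could be fitted and 40 also their side of the threshold. Under the HT29 conditions the log2 fold change turned for APOA4 (-1.16), SLC26A2 (-0.31), BNIP3 (-1.8), FABP1 (-0.52), APOB (-1.69), TOP2A (-0.90) and CDK1 (-1.37). It turned for CDK1 above the line midpoint (-1.05), and with MUC2 alone for APOB (-1.26), TOP2A (-0.067) and CDK1 (-0.51). The causes were not tested. The limit to goblet-like cells under 0.5% APOA1 plus APOC3 and the limit to the line midpoint were added after the data had been seen. Precision is limited by the 753458 UMIs of the goblet-like class, in which 172 of the 972 genes had under 10 UMIs.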
